A study of Mus musculus with 12 samples.

Results

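The lamina propria mononuclear cell preparations (LPMC) of this mouse colitis study comprised 6 libraries out of 12, namely LPMC of wild-type mice (WT, 3 libraries) and LPMC of mice lacking Gpr15l (Gpr15l-/-, here KO, 3 libraries). They were taken as the columns of the count table that the sample labels name as LPMC. Every mouse had acute colitis from dextran sulfate sodium (DSS), a polymer that injures the colonic epithelium, so the treatment is shared by both groups and no untreated LPMC was compared here. The other 6 libraries are full colon tissue of the same 2 genotypes under DSS. The deletion is described as Gpr15l-/- with no word on the allele, the strain, the age of the animals or whether the controls were littermates. Nothing in the labels states that replicate libraries are different animals. P-values therefore describe library-to-library spread, part of which may be technical.

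Gpr15l encodes a small secreted chemokine-like peptide made by epithelial cells of the colon and the skin. Its receptor Gpr15 sits on T cells, among them regulatory T cells, and helps to guide them into the large intestine. The lamina propria is the connective layer under the epithelium, and cells released from it by enzymatic digestion hold lymphocytes, plasma cells, macrophages and, in colitis, many neutrophils. Such preparations also carry stromal cells and epithelial cells that were not removed beforehand.

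The promoters of 3 genes are shown: the deleted gene (annotated as 2610528A11Rik), its neighbour Cdhr1, which was higher in KO, and Cxcl1, a neutrophil-attracting chemokine that was lower in KO. The edgeR test used below called the deleted gene and Cdhr1 but not Cxcl1 (edgeR adjusted p = 0.998). Each is 250 bases before to 50 bases after the RefSeq start site on GRCm38.p6, read on the strand of the gene. The window of the deleted gene is chr14:37110052-37110351 on the minus strand, that of Cdhr1 is chr14:37098298-37098597 on the minus strand, and that of Cxcl1 is chr5:90890995-90891294 on the plus strand. Capitals mark TATAAA, the TATA box, in the deleted gene.
2610528A11Rik: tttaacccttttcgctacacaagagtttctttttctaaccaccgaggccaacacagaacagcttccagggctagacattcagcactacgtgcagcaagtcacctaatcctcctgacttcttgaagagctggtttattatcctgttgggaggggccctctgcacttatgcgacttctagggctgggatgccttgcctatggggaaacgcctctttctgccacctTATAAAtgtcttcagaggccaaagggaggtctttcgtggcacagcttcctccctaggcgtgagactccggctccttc
Cdhr1: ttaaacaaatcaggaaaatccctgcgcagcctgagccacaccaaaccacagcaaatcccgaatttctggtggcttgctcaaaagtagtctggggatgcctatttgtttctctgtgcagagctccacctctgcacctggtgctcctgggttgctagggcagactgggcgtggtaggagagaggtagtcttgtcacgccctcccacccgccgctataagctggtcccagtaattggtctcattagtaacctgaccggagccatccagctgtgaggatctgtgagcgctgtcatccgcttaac
Cxcl1: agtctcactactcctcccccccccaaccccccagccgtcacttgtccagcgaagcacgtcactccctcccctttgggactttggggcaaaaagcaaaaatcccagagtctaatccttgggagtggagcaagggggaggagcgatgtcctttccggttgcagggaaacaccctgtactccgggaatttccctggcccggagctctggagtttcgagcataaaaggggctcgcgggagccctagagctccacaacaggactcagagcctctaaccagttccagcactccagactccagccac
The capitals begin 27 bases before the start site. On either strand, TATAAA was found in 3827 of 27025 mouse promoters of this length (14.2%). Of the 12 genes of lowest p in each direction described below, 10 on the higher side and 7 on the lower side had a promoter entry. TATAAA stood in 3 of these 10 promoters (Fgfbp3, Lpcat2 and Mcpt1) and in 2 of these 7 (Clca4b and Rdh16). The window of the deleted gene lies inside the gene span given by GENCODE, whose start site differs from that of RefSeq.

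The LPMC libraries held 50.2 to 130.4 M counts each (M is 1e6). Levels are given as CPM, counts per 1e6 reads after scaling by the trimmed mean of M-values (TMM), and differences as log2 of KO over WT with their standard error (SE). The cell type named by the labels was checked against markers. Ptprc, the CD45 antigen of white blood cells, ran from 76.5 to 297 CPM in LPMC and from 4.11 to 124 CPM in full colon. Cd3e, a T cell receptor subunit, ran from 3.22 to 12.4 CPM in LPMC and from 0.261 to 2.27 CPM in colon. The epithelial adhesion molecule Epcam, however, ran from 964 to 1409 CPM in LPMC against 1335 to 2433 CPM in colon, so epithelial RNA was abundant in every LPMC library. The glial markers S100b and Sox10 were at 0.132 CPM or less in LPMC. LPMC WT 1 alone held pancreatic enzyme transcripts, with Ctrb1 at 293 CPM and Cpa1 at 88.7 CPM, against at most 0.644 and 0.437 CPM in the other 5 LPMC libraries. In bulk RNA, fewer cells of a type and less RNA per cell cannot be told apart.

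A pair of libraries stood apart from the others of their group. The first principal component of log2 CPM carried 44.3% of the variance and placed LPMC WT 3 (-78.2) and LPMC KO 2 (-63.3) at one end, with the other 4 between 18.1 and 61.6. These 2 libraries had the lowest summed T cell, B cell, MHC class II and fibroblast marker levels of their groups. The fibroblast and matrix genes summed to 974 CPM in WT 3 and 1123 CPM in KO 2, against 3700 to 5947 CPM in the other 4. The 10 largest positive loadings on the first component included the pancreatic enzyme genes Ctrb1 and Cpb1. Both were high in WT 1 alone (293 and 78.1 CPM), the library with the highest score (61.6). The next component (17.9%) parted the genotypes, with WT at -24.6, -15.4 and -48.7 and KO at 26.6, 49.6 and 12.4. Results on several of the cell type marker lists are therefore given also without WT 3 and KO 2, a choice made after seeing the data.

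The map of list levels by library shows this pattern.

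**Figure D1:**
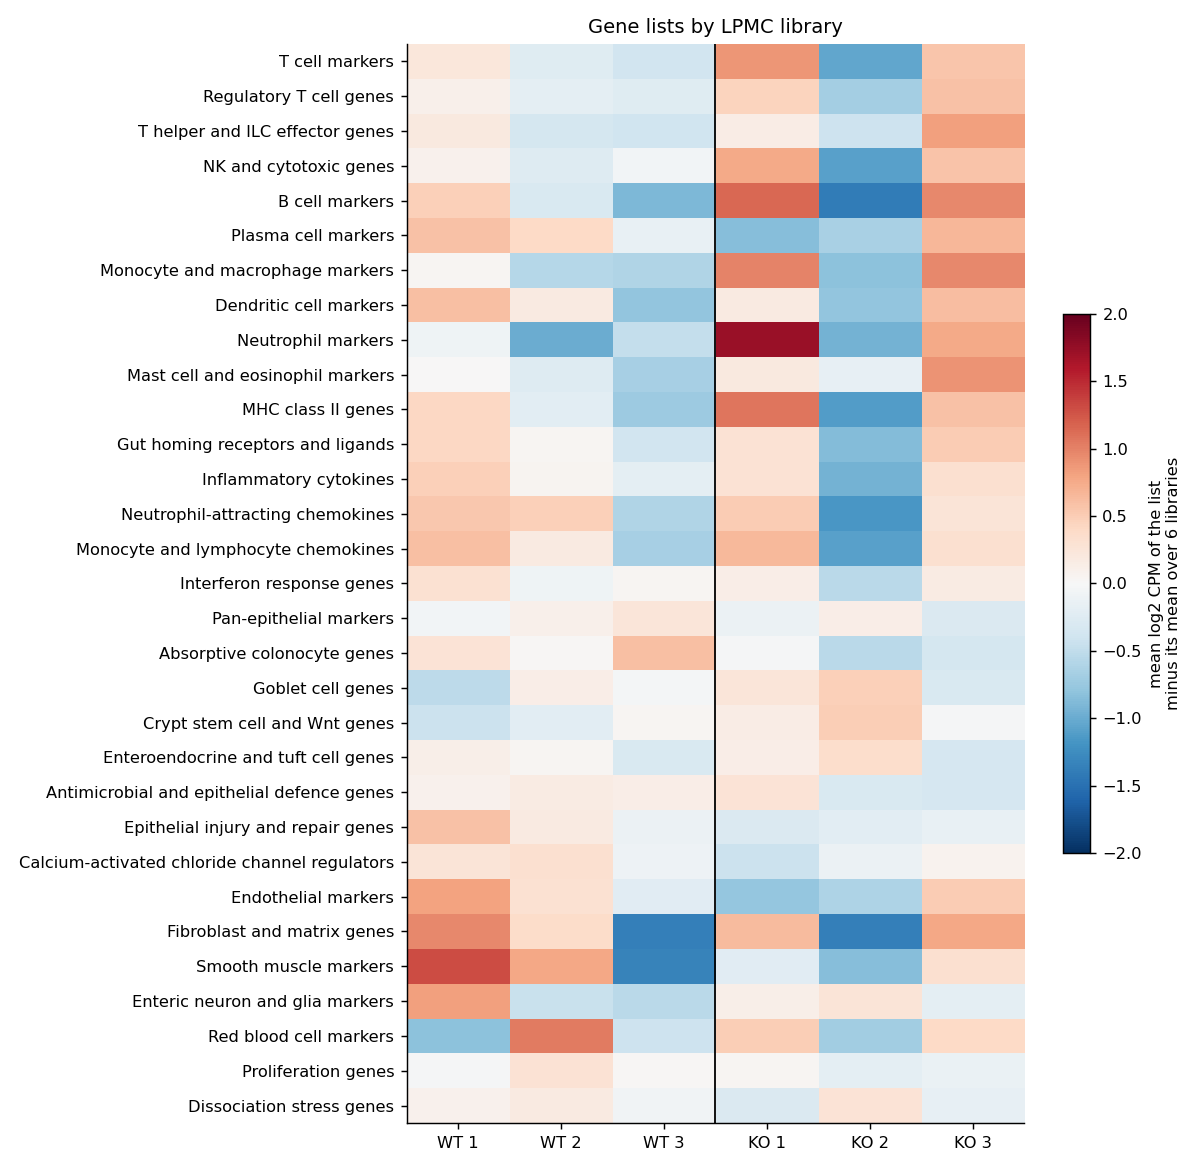
Mean log2 CPM of 31 gene lists (rows) in the 6 LPMC libraries (columns), each minus the list's mean over the 6 libraries; red is above and blue below that mean, on a scale from -2 to 2. KO 1 and KO 3 are red and KO 2 is blue for the T cell, B cell, macrophage, neutrophil and MHC class II lists, and WT 3 and KO 2 are the blue pair for fibroblast and matrix genes.

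The deleted gene served as the check of the genotype labels. Gpr15l (ENSMUSG00000096001, chr14:37102140-37114022 in GRCm38, minus strand) had 298, 337 and 372 CPM in the 3 WT libraries and 0.0294, 0.0734 and 0.138 CPM in the 3 KO libraries. The groups did not overlap, and the ratio of mean levels was 4187 in favour of WT. The log2 difference was -12.16 (SE 0.46), and edgeR's quasi-likelihood test with Benjamini-Hochberg adjustment gave an adjusted p of 0.00162. Every genotype label therefore fitted the reads of the targeted gene. Gpr15, its receptor, was low in both groups, at 2.00, 1.49 and 1.06 CPM in WT and 1.69, 0.453 and 0.963 CPM in KO, and the groups overlapped. Its log2 difference of -0.54 (SE 0.52) was smaller than 2 standard errors.

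Cdhr1 rose. This gene encodes a cadherin known from photoreceptor outer segments and lies on the same strand as Gpr15l, with 3792 bases between the ends of the gene models (chr14:37077857-37098347). Its level was 7.43, 5.96 and 9.97 CPM in WT and 149, 158 and 126 CPM in KO. Each KO library thus stood far above each WT library, and the ratio of mean levels was 18.5. The log2 difference was 4.22 (SE 0.23, edgeR adjusted p = 0.00572). The call was lost without WT 1 (4.19, edgeR adjusted p = 0.112) and without KO 1 (4.20, edgeR adjusted p = 0.05895), with the difference at the same size.

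Ghitm and Ccser2, the other tested genes around the deleted gene, showed no such step. Within 1 Mb of it GENCODE lists 7 protein-coding genes, the deleted gene included, and 4 of them had enough counts to be tested. Ghitm, a mitochondrial inner membrane protein, was at 277, 296 and 341 CPM in WT and 288, 327 and 310 CPM in KO. Ccser2 was at 66.6, 59.1 and 68.7 CPM in WT and 56.0, 62.4 and 71.3 CPM in KO. Both genes had overlapping groups. Rgr, Lrit1 and Lrit2, which lie on the far side of Cdhr1 and are known from the retina, had 4, 2 and 8 counts over the 6 libraries. They were not tested, so a step in them was not assessed. All 8 counts of Lrit2 were in KO 1. In full colon Lrit2 was scarce, at 0.995 CPM or less, with a log2 difference of 2.75 (SE 1.02).

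**Figure D2:**
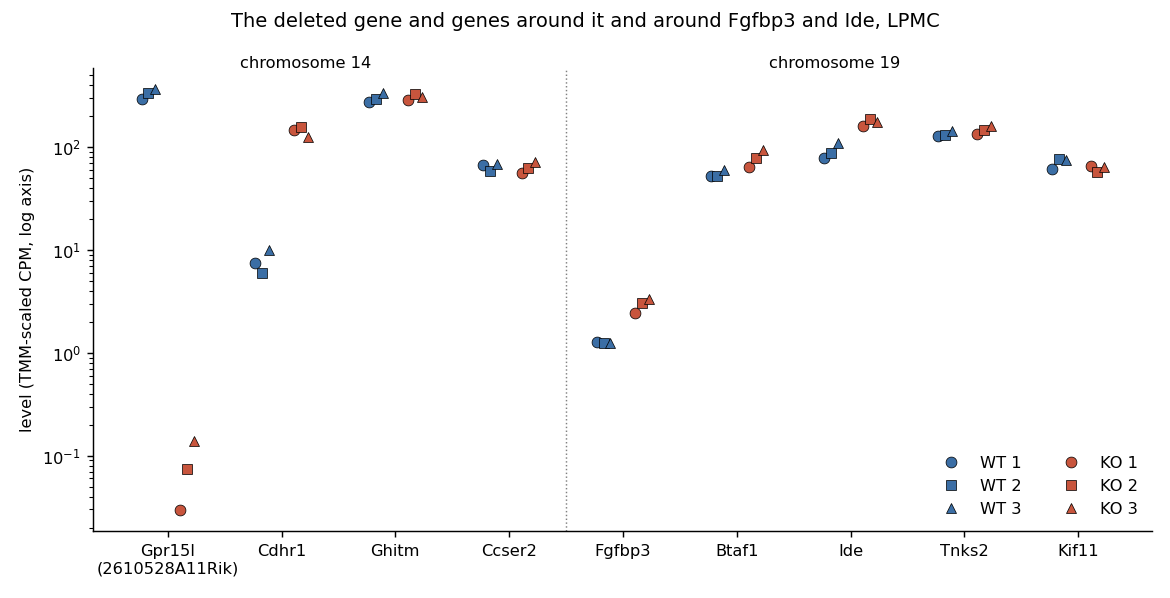
Levels in TMM-scaled CPM (log axis) of the deleted gene and 3 genes near it on chromosome 14, and of 5 genes of chromosome 19; each point is 1 LPMC library, WT in blue and KO in red. The deleted gene is at 298 to 372 in WT and at most 0.138 in KO, Cdhr1 is at 126 to 158 in KO and at most 9.97 in WT, and Ghitm, Ccser2, Tnks2 and Kif11 overlap.

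Outside this locus edgeR called no gene. By edgeR, 2 of 19426 tested genes (0.0103%) had an adjusted p under 0.05, Gpr15l and Cdhr1, and the next lowest adjusted p was 0.745. Before adjustment, p was under 0.05 for 233 genes on the higher side (1.20%) and 280 on the lower (1.44%). DESeq2 on the same counts called 32 of 19557 genes (0.164%), 8 higher and 24 lower, of which 17 were variable segments of antibody genes. On simulated data, described under processing, DESeq2 made 105 wrong calls and edgeR 11. The adjusted p-values quoted from DESeq2 may therefore be too low. Groups did not overlap for 682 genes on the higher side (3.51%) and 827 on the lower side (4.26%). A positive log2 difference was found for 9559 genes (49.2%), and the median over all tested genes was -0.0041. In what follows, no gene other than Gpr15l and Cdhr1 passed edgeR's threshold, and values are given as measured differences.

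On the higher side, the genes of lowest p after Cdhr1 included 2 neighbours on chromosome 19. Ide, the insulin-degrading protease, was at 79.4, 88.6 and 109 CPM in WT and 160, 187 and 177 CPM in KO, a log2 difference of 0.92 (SE 0.14). Fgfbp3, a secreted protein that binds fibroblast growth factors, was at 1.29, 1.26 and 1.24 CPM in WT and 2.45, 3.04 and 3.32 CPM in KO, a log2 difference of 1.22 (SE 0.24). In both genes every KO library was above every WT library. Their starts lie 351.2 kb apart (Fgfbp3 at chr19:36917550-36919615, Ide at chr19:37268743-37337852). Btaf1, the gene next to Fgfbp3, had a log2 difference of 0.52 (SE 0.15), with 52.9, 52.1 and 60.0 CPM in WT and 63.9, 79.3 and 93.6 CPM in KO. Tnks2 (0.13, SE 0.10) and Kif11 (-0.19, SE 0.12), on either side of this stretch, had overlapping groups. So did Cpeb3 (-0.09, SE 0.24) and March5 (-0.00, SE 0.11), which lie between Fgfbp3 and Ide. Of the 17 tested protein-coding genes within 1 Mb of Fgfbp3, none was called by edgeR, while DESeq2 called Ide (adjusted p = 0.00171) and Fgfbp3 (adjusted p = 0.000356). In full colon the log2 difference was 0.87 (SE 0.25) for Ide and 2.38 (SE 0.41) for Fgfbp3.

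The remaining higher genes are known from several cell types. Lfng, a glycosyltransferase that modifies Notch receptors, was at 23.3 to 26.6 CPM in WT and 34.6 to 38.3 CPM in KO, a log2 difference of 0.54 (SE 0.10). Cmah, the hydroxylase of sialic acid, was at 38.5 to 42.3 CPM in WT and 55.0 to 80.1 CPM in KO (0.76, SE 0.15). These 2 genes had narrow groups that stood clear of each other. Mcpt1, a protease of mucosal mast cells, was at 8.04, 9.14 and 13.5 CPM in WT and 19.6, 17.8 and 23.4 CPM in KO (0.99, SE 0.23). Cd163l1, a scavenger receptor family member known from gamma delta T cells, was at 8.25, 5.85 and 4.56 CPM in WT and 10.2, 17.8 and 24.1 CPM in KO (1.48, SE 0.37). Arg1, which breaks down arginine and marks a subset of macrophages, was at 2.72, 3.68 and 3.22 CPM in WT and 7.51, 5.04 and 5.21 CPM in KO (0.89, SE 0.25). Sesn3, Lpcat2, Ppp1r3b and Atg2a completed the 12 with log2 differences between 0.33 and 0.44.

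The 12 genes of lowest p on the lower side included several that are known from epithelium. Clca4b, a member of the calcium-activated chloride channel regulator family, was at 69.3, 58.3 and 68.2 CPM in WT and 19.1, 17.8 and 28.1 CPM in KO. The groups stood far apart, and the log2 difference was -1.59 (SE 0.20, edgeR adjusted p = 0.745). Saa1, a serum amyloid A protein made by epithelium in contact with bacteria, was at 37.5, 25.4 and 37.2 CPM in WT and 10.5, 13.7 and 10.01 CPM in KO (-1.55, SE 0.21). Cxcl1, whose promoter is shown above, was at 147, 127 and 130 CPM in WT and 67.8, 57.9 and 83.0 CPM in KO (-0.95, SE 0.15). In these 3 genes each KO library lay below each WT library. Sprr2a3, of the small proline-rich proteins of the cornified envelope, was at 89.8, 97.2 and 63.6 CPM in WT and 44.2, 36.8 and 41.7 CPM in KO (-1.03, SE 0.18). Nfkbiz, a nuclear cofactor of NF-kB, was at 615, 715 and 553 CPM in WT and 410, 424 and 379 CPM in KO (-0.64, SE 0.12). Rdh16, a retinol dehydrogenase, was at 14.9, 16.97 and 12.6 CPM in WT and 7.29, 8.20 and 8.14 CPM in KO (-0.91, SE 0.17). Again the groups of all 3 genes did not overlap. Ptk6, an epithelial tyrosine kinase, Sgk2, Cyp2d34, Hsd17b2, Sdcbp2 and Mall had log2 differences of -1.06 to -0.49. Of these 12 genes DESeq2 called Clca4b, Saa1, Cxcl1, Rdh16 and Sprr2a3, with adjusted p from 7.04e-08 for Clca4b to 0.00421 for Sprr2a3. Outside the 12, the deleted gene and the variable segments, DESeq2 called 3 more genes as lower in KO. They were Syt8 (-2.01, adjusted p = 2.733e-05), the antibody constant region Ighg1 (-1.98, adjusted p = 0.03235) and the predicted gene Gm36640 (-1.06, adjusted p = 0.04918). Saa1, Sprr2a3 and Clca4b have near-identical copies among which reads may be divided, so their values are uncertain to that extent.

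**Figure D3:**
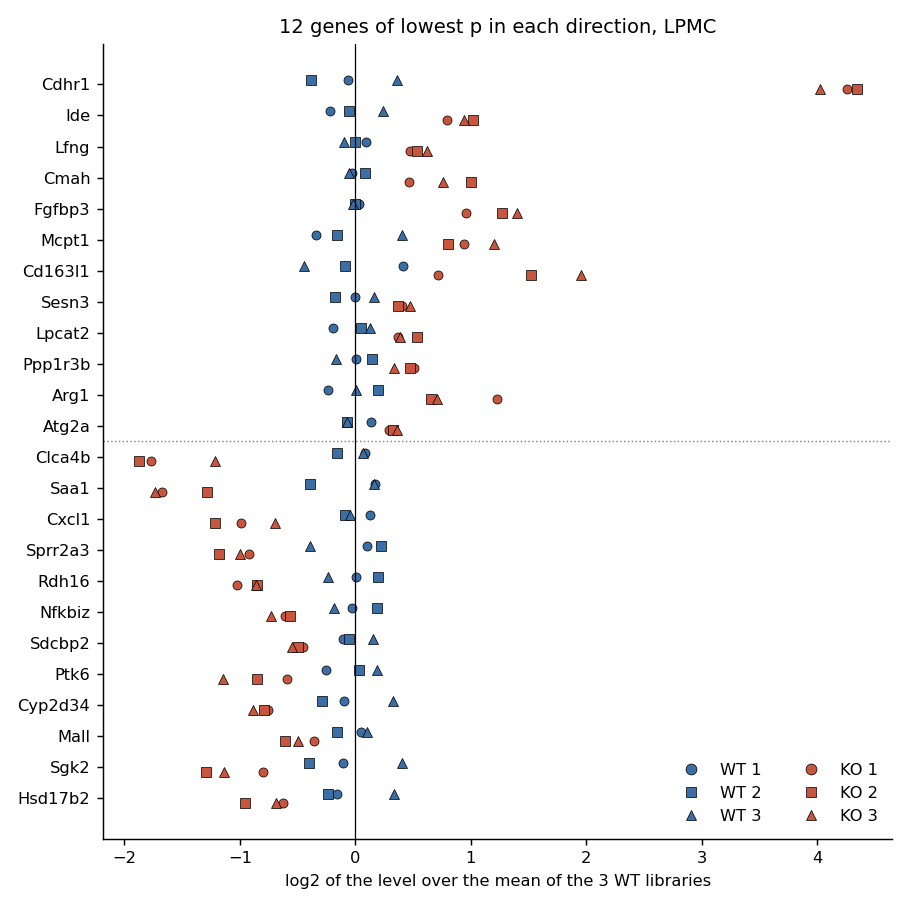
log2 of each library's level over the mean of the 3 WT libraries (x axis) for the 12 genes of lowest p higher in KO (top) and the 12 lower in KO (bottom); WT in blue, KO in red, marker shape gives the replicate number. Cdhr1 is the only gene here whose KO points lie above 4, and for each of the 24 genes the WT and KO points do not overlap.

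Neutrophil markers had the largest list median among the 32 lists. These genes mark granulocytes, which enter the inflamed colon wall, and their median log2 difference was 1.70 over 16 tested members, 15 of them positive, against -0.0041 over all genes. None was called by edgeR, and none had groups that did not overlap. S100a8, a subunit of the calcium-binding protein calprotectin, was at 14.2, 6.69 and 20.9 CPM in WT and 96.2, 10.6 and 67.9 CPM in KO (2.07, SE 0.82). Its partner S100a9 was at 53.8, 25.9 and 57.3 CPM in WT and 305, 33.9 and 194 CPM in KO (1.96, SE 0.77). KO 1 and KO 3 were thus high and KO 2 lay within the WT range in both. The collagenase Mmp8 had the same shape, at 5.92, 3.55 and 8.15 CPM in WT and 37.1, 5.30 and 27.5 CPM in KO (1.99, SE 0.71). Retnlg (1.75, SE 0.64), Mmp9 (1.65, SE 0.60) and Stfa2l1 (2.25, SE 0.81) also had KO 2 inside the WT range. Ly6g, the surface antigen that defines mouse neutrophils, did not follow, with 6.80, 4.98 and 4.02 CPM in WT and 4.48, 1.46 and 5.90 CPM in KO (-0.42, SE 0.51). Scaled over all 12 libraries, Ly6g ran from 1.446 to 6.665 CPM in LPMC and from 246.7 to 582.9 CPM in full colon. On that scale S100a9 ran from 25.09 to 301.8 CPM in LPMC and from 3.639 to 105.8 CPM in colon. Ly6g thus did not track S100a9 between the tissues, and the source of its reads was not tested. Without WT 3 and KO 2 the list median was 2.30, and with 1 library left out at a time it ran from 1.03 to 2.15.

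Macrophage and monocyte markers were also mostly on the positive side. Of 20 tested members 18 were positive, with a median of 0.94 and 1.16 without WT 3 and KO 2. Csf1r, the growth factor receptor of these cells, was at 77.2, 40.4 and 36.5 CPM in WT and 109, 35.2 and 146 CPM in KO (0.91, SE 0.55). Adgre1, the F4/80 antigen of macrophages, was at 9.26, 6.11 and 5.35 CPM in WT and 16.04, 4.75 and 18.2 CPM in KO (0.91, SE 0.51). In both, KO 2 was below every WT library while KO 1 and KO 3 were above. Mrc1, the mannose receptor of resident macrophages, was at 3.25, 2.43 and 2.04 CPM in WT and 7.12, 3.10 and 9.99 CPM in KO (1.38, SE 0.45). Ms4a7, a membrane protein of macrophages, was at 1.47, 2.20 and 1.92 CPM in WT and 4.24, 2.79 and 3.91 CPM in KO (0.97, SE 0.28), and its groups did not overlap. The complement subunit C1qc and the Fc receptor Fcgr1 had differences of 1.21 (SE 0.63) and 1.35 (SE 0.61), and the chemokine receptor of incoming monocytes, Ccr2, of 0.79 (SE 0.36). Within the myeloid lineage, the log2 ratio of Ly6c2, a monocyte antigen, to C1qa, a gene of mature macrophages, was 0.97, 1.01 and 1.41 in WT and -1.07, 0.51 and 0.55 in KO. The groups did not overlap, and the means differed by -1.13, or by -0.60 without KO 1. With 3 values against 3 an exact permutation test cannot go below p = 0.10, so no ratio was tested.

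Mast cell and eosinophil markers had a median of 0.71, with 12 of 15 tested members positive and 2, Mcpt1 and Ear2, higher in each KO library than in each WT library, against 3.51% of all tested genes. The median ran from 0.43 (without KO 3) to 0.99 (without KO 2), and was 1.04 without both WT 3 and KO 2. Mcpt4, a protease of connective tissue mast cells, had a difference of 1.11 (SE 0.54) and Ccr3, the eotaxin receptor of eosinophils, of 1.26 (SE 0.54), both with overlapping groups. The 3 negative members were Cma1 (-1.59, SE 1.26), Prg2 (-0.54, SE 0.79) and Siglecf (-0.10, SE 0.42), also with overlapping groups. Markers of these cells thus lay on both sides of 0. Ear2 was low, at 0.0400 to 0.273 CPM in WT and 0.309 to 0.587 CPM in KO (1.62, SE 0.66). Mcpt1, Ear2 and Mcpt4 lie on chromosome 14, as does the deleted gene, and a link to it was not tested. Dendritic cell markers were split, with 6 of 12 positive and a median of -0.01, which ran from -0.32 to 0.31 with 1 library left out. Clec9a, a receptor of cross-presenting dendritic cells, was at 2.66, 2.13 and 0.699 CPM in WT and 0.610, 0.636 and 1.57 CPM in KO (-0.98, SE 0.60). MHC class II genes, which present peptides to CD4 T cells, were positive in 10 of 10 with a median of 0.50 that ran from 0.03 (without KO 1) to 0.88 (without KO 2). H2-Aa was at 593, 345 and 229 CPM in WT and 721, 182 and 708 CPM in KO (0.47, SE 0.59), so that KO held both the highest and the lowest library.

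T cell markers were positive in 19 of 20 members, with a median of 0.49, and 0.76 without WT 3 and KO 2. The medians with 1 library left out ran from 0.03 to 0.87. Cd3e was at 7.92, 4.93 and 6.37 CPM in WT and 12.6, 3.24 and 9.38 CPM in KO (0.39, SE 0.48). Cd4, the coreceptor of helper T cells, was at 14.8, 11.4 and 9.51 CPM in WT and 30.3, 6.73 and 23.9 CPM in KO (0.78, SE 0.53), and Cd8a, that of cytotoxic T cells, had a difference of -0.03 (SE 0.60). The 2 genotypes overlapped in each of these genes, with KO 2 the lowest library. Trdc, the constant region of the T cell receptor delta chain, was the member of the list whose groups did not overlap, at 4.87, 2.70 and 4.70 CPM in WT and 5.59, 6.25 and 11.7 CPM in KO (0.94, SE 0.38). The gamma chain constant regions, looked up after Trdc was seen, did not share this, with differences of 0.40 (SE 0.44) for Tcrg-C1, -0.10 (SE 0.60) for Tcrg-C2 and -0.35 (SE 0.69) for Tcrg-C4. Trdc lies at chr14:54142851-54148868, on the chromosome of the deleted gene. Mcpt1, Ear2 and Olfm4 lie on that chromosome too, while Ms4a7, Cxcr6 and Il5, also higher without overlap, do not. Whether this location bears on their differences was not tested. The log2 ratio of Trdc to Cd3e was -0.70, -0.87 and -0.44 in WT and -1.17, 0.95 and 0.32 in KO, and the groups overlapped. That of Cd8a to Cd4 was -0.33, -0.80 and 0.43 in WT and -0.71, -0.91 and -1.57 in KO, a difference of -0.82 with overlap.

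Regulatory T cell genes are of interest because Gpr15 guides these cells to the colon. 11 of 12 members were positive, with a median of 0.37 that ran from 0.20 (without KO 1) to 0.73 (without KO 2). Foxp3, their master transcription factor, was at 7.04, 6.44 and 5.71 CPM in WT and 12.5, 2.69 and 8.89 CPM in KO (0.33, SE 0.51). Relative to T cells the levels were close: the log2 ratio of Foxp3 to Cd3e was -0.17, 0.39 and -0.16 in WT and -0.01, -0.27 and -0.08 in KO, a difference of means of -0.14 inside the spread of WT. Il2ra, the high-affinity interleukin 2 receptor chain (0.86, SE 0.40), and Icos, a costimulatory receptor (0.84, SE 0.36), had overlapping groups. No member was called, and none had groups that did not overlap.

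Among T helper and innate lymphoid effector genes, 11 of 13 tested members were positive with a median of 0.70, and without KO 3 it was 0.17. Il22, the cytokine that drives antimicrobial genes in epithelium, was on the other side, at 28.9, 19.8 and 19.5 CPM in WT and 6.52, 7.34 and 20.4 CPM in KO (-0.99, SE 0.47). KO 1 and KO 2 were below the WT libraries and KO 3 lay within them. Il17a was at 4.88, 2.78 and 1.62 CPM in WT and 4.68, 1.81 and 9.08 CPM in KO (0.74, SE 0.65), and Ifng had a difference of 0.29 (SE 0.51). Il5, a type 2 cytokine that supports eosinophils, was low, at 0.759, 0.915 and 0.559 CPM in WT and 0.934, 1.16 and 2.16 CPM in KO (0.92, SE 0.41), without overlap. Il4 had a difference of 0.84 (SE 0.44) and Il13 of 0.81 (SE 0.49), both with overlapping groups. NK and cytotoxic genes were positive in 13 of 14, with a median of 0.27 (-0.02 without KO 1, 0.76 without WT 3 and KO 2). The protease Gzmb had a difference of 0.73 (SE 0.41).

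B cells and plasma cells lay on opposite sides of 0. B cell markers were positive in 12 of 12, with a median of 0.81, and 1.03 without WT 3 and KO 2. With 1 library left out the median ran from 0.27 (without KO 1) to 1.29 (without KO 2). Cd79a, a subunit of the B cell receptor, was at 53.4, 38.5 and 16.9 CPM in WT and 71.6, 14.5 and 66.7 CPM in KO (0.49, SE 0.67). Plasma cell markers were positive in 4 of 14, with a median of -0.45 that ran from -1.03 (without KO 3) to -0.18 (without KO 1). Igha, the heavy chain of immunoglobulin A, was at 17830, 18573 and 6492 CPM in WT and 2082, 5416 and 18058 CPM in KO (-0.75, SE 0.81). Jchain, which joins immunoglobulin A into dimers, was at 2548, 2630 and 1199 CPM in WT and 252, 712 and 2492 CPM in KO (-0.88, SE 0.81). KO 1 and KO 2 were thus low in plasma cell RNA while KO 3 was as high as WT 1 and WT 2, although KO 1 had the highest summed B cell level. The log2 ratio of Ighm, the heavy chain of immunoglobulin M, to Igha was -7.23, -8.09 and -7.09 in WT and -3.14, -6.99 and -6.60 in KO, without overlap, a difference of 1.89 (0.67 without KO 1). Iglc2, a lambda light chain, was at 57.6, 27.3 and 172 CPM in WT and 25.9, 9.22 and 31.6 CPM in KO (-1.95, SE 0.78), with WT 3 the highest. Iglc1, another lambda light chain, was on the other side, at 156, 111 and 90.8 CPM in WT and 39.8, 149.6 and 491 CPM in KO (0.93, SE 0.82), with overlap. The ratio of Igha to the kappa chain Igkc was close to 1.2 on the log2 scale in both groups (WT mean 1.18, KO mean 1.20). The heavy chain constant region Ighg1 was called by DESeq2 as lower in KO (-1.98, adjusted p = 0.03235) and not by edgeR. Of 265 tested variable segments of antigen receptors 111 had a positive difference, 6 were higher and 29 lower without overlap, and edgeR called none, while DESeq2 called 17. Over all tested genes 3.51% were higher and 4.26% lower without overlap.

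Homing genes, which include the pathway of the deleted ligand, were positive in 11 of 18, with a median of 0.11 that ran from 0.01 (without KO 1) to 0.47 (without KO 2). Cxcr6, a receptor of tissue-resident T cells, was at 10.4, 8.60 and 9.25 CPM in WT and 14.9, 11.8 and 21.03 CPM in KO (0.76, SE 0.23). Itgae, the integrin that binds lymphocytes to epithelium, was at 15.2, 10.7 and 18.4 CPM in WT and 10.6, 4.61 and 8.36 CPM in KO (-0.90, SE 0.35). In each of these 2 genes the groups did not overlap, in opposite directions. Madcam1, the vessel ligand of the gut integrin, was at 11.95, 7.69 and 2.74 CPM in WT and 1.65, 0.844 and 4.002 CPM in KO (-1.79, SE 0.73). Ccl20, the epithelial ligand of Ccr6, was at 29.8, 40.7 and 11.7 CPM in WT and 15.3, 9.78 and 8.27 CPM in KO (-1.30, SE 0.48). KO 3 overlapped WT in the first and KO 1 in the other.

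Inflammatory cytokines had a median of -0.12 with 6 of 15 positive (-0.25 without WT 3 and -0.03 without KO 3). Il1b was at 694, 413 and 396 CPM in WT and 795, 216 and 884 CPM in KO (0.34, SE 0.53). Il18, an epithelial cytokine, was at 34.8, 36.9 and 44.5 CPM in WT and 23.4, 31.0 and 26.8 CPM in KO (-0.52, SE 0.15), and Il23a, which sustains Th17 cells, was at 25.2, 13.8 and 13.6 CPM in WT and 12.6, 3.30 and 10.5 CPM in KO (-0.99, SE 0.52). These were the 2 members without overlap, both lower in KO. Osm, a myeloid cytokine of the interleukin 6 family, was at 7.10, 4.07 and 6.39 CPM in WT and 19.6, 4.43 and 20.1 CPM in KO (1.33, SE 0.57), with KO 2 inside the WT range. Neutrophil-attracting chemokines were positive in 2 of 5 tested, with Cxcl1 the member without overlap and Cxcl5 at -1.06 (SE 0.93). Thus Cxcl1 was lower in the 2 KO libraries whose neutrophil transcripts were highest as well as in KO 2. Chemokines of monocytes and lymphocytes were positive in 12 of 16, with a median of 0.15, which was -0.25 without KO 1 and -0.03 without WT 3. Ccl22, a dendritic cell chemokine that attracts regulatory T cells, was at 10.6, 7.40 and 3.56 CPM in WT and 1.68, 1.54 and 4.13 CPM in KO (-1.56, SE 0.55), and its close relative Ccl17 was low, at 0.1998 to 0.740 CPM in WT and 0.0956 to 0.196 CPM in KO (-1.37, SE 0.63). Interferon response genes had a median of -0.16 (0.01 without KO 2 and 0.03 without WT 1), with Mx2 (-0.78, SE 0.28) and Ifit1 (-0.62, SE 0.23) at the lowest p and overlapping groups.

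Epithelial RNA was present at overlapping levels in both genotypes, while its surface and goblet cell genes had medians on opposite sides of 0. Of these surface and goblet cell genes edgeR called none, and DESeq2 called Saa1 (-1.56, adjusted p = 2.304e-06), which was lower in KO. Pan-epithelial markers summed to 15840 to 18882 CPM in WT and 13353 to 17967 CPM in KO. Their median was -0.14, and Epcam was at 984, 1201 and 1433 CPM in WT and 1092, 1419 and 1069 CPM in KO. The log2 ratio of Epcam to Ptprc was 2.41, 3.31 and 3.45 in WT and 1.96, 4.20 and 1.78 in KO, so the balance of epithelial to leukocyte RNA overlapped, with KO at both ends. Krt20, the keratin of the uppermost colonocytes, was at 358, 264 and 450 CPM in WT and 241, 131 and 190 CPM in KO (-0.93, SE 0.28), without overlap.

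Absorptive colonocyte genes were negative in 18 of 20 members, with a median of -0.67, and 6 of 20 were lower without overlap, against 4.26% of all tested genes. They were Car4, Aqp8, Hsd17b2, Cyp2c55, Saa1 and Mall. Car4, the carbonic anhydrase of the surface membrane, was at 47.6, 20.9 and 48.3 CPM in WT and 13.6, 15.3 and 17.03 CPM in KO (-1.34, SE 0.33). Aqp8, a water channel, was at 3.69, 5.31 and 9.79 CPM in WT and 1.98, 3.41 and 3.29 CPM in KO (-1.11, SE 0.42). Slc26a3, the chloride and bicarbonate exchanger, was at 91.4, 63.7 and 150 CPM in WT and 55.8, 65.6 and 69.7 CPM in KO (-0.67, SE 0.31), with overlap. WT 3 had the highest summed level of the WT libraries (9940 CPM against 6387 and 6823 CPM). The KO libraries summed to 6473, 5525 and 5886 CPM, so the groups overlapped in summed level. The median ran from -0.87 (without KO 1) to -0.39 (without WT 3) with 1 library left out. Without both WT 3 and KO 2 it was -0.22 and 4 of 20 members were positive. Relative to Epcam, Car4 was at -4.37, -5.84 and -4.89 on the log2 scale in WT and -6.32, -6.53 and -5.97 in KO, without overlap.

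Goblet cell genes lay on the other side. They were positive in 13 of 13 members, with a median of 0.32, none without overlap. Muc2, the gel-forming mucin of the colon, was at 2994, 3659 and 4582 CPM in WT and 4976, 12239 and 4169 CPM in KO (0.93, SE 0.44), with KO 2 far above the rest. Per Epcam, Muc2 was 1.61, 1.61 and 1.68 on the log2 scale in WT and 2.19, 3.11 and 1.96 in KO, so this ratio did not overlap, with a difference of 0.79 (0.45 without KO 2). Without WT 3 and KO 2 the list median was 0.14, and it was 0.10 without WT 1. Crypt stem cell and Wnt target genes had a median of 0.25 with 11 of 13 positive, and without KO 2 the median was -0.02. Lgr5, the stem cell receptor, was at 6.43, 11.02 and 14.6 CPM in WT and 9.31, 21.2 and 10.4 CPM in KO (0.35, SE 0.42). Olfm4 was scarce, at 0.0779, 0.0831 and 0.719 CPM in WT and 1.78, 1.20 and 1.25 CPM in KO (2.36, SE 0.90). It lies on chromosome 14, as does the deleted gene, and a link to it was not tested. Enteroendocrine and tuft cell genes had a median of 0.26 (-0.17 without WT 3 and KO 2), and Chga a difference of 0.29 (SE 0.19).

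Antimicrobial and defence genes were divided, with 7 of 16 positive and a median of -0.03. Of the 16 members 6 were lower without overlap, against 4.26% of all tested genes. The median was -0.56 without KO 1, 0.17 without KO 3 and 0.003 without WT 2. Reg3b, a secreted lectin, was at 5418, 5879 and 7823 CPM in WT and 2612, 4594 and 3516 CPM in KO (-0.83, SE 0.24). Reg3g, which kills Gram-positive bacteria, was at 1045, 1161 and 1687 CPM in WT and 407, 796 and 706 CPM in KO (-1.03, SE 0.30). Every KO library was below every WT library in both. Saa2 (-1.25, SE 0.38), Duoxa2 (-0.60, SE 0.22), the maturation factor of dual oxidase, and Lypd8 (-0.49, SE 0.20), which keeps flagellated bacteria from the epithelium, completed the members without overlap together with Saa1. Saa1 is counted among the absorptive colonocyte genes as well. Saa2 was scarce, at 0.3534 to 0.4478 CPM in WT and 0.1375 to 0.2058 CPM in KO. Lcn2, the iron-sequestering lipocalin that neutrophils also carry, was at 27.4, 16.8 and 16.6 CPM in WT and 122, 7.86 and 40.8 CPM in KO (1.49, SE 0.88). Its highest and lowest libraries were both KO, KO 1 and KO 2. Among epithelial injury and repair genes, 4 of 15 were positive with a median of -0.15 (0.05 without KO 1), and Sprr2a3 was joined by Anxa1 as the members without overlap. In the family of calcium-activated chloride channel regulators, Clca4a was at 11.3, 10.6 and 19.4 CPM in WT and 2.63, 7.15 and 7.69 CPM in KO (-1.24, SE 0.45), beside Clca4b, while 3 of the 7 tested members were positive and the median was -0.16. That median was -0.45 without KO 3, 0.03 without WT 1 and 0.047 with limma voom.

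**Figure D4:**
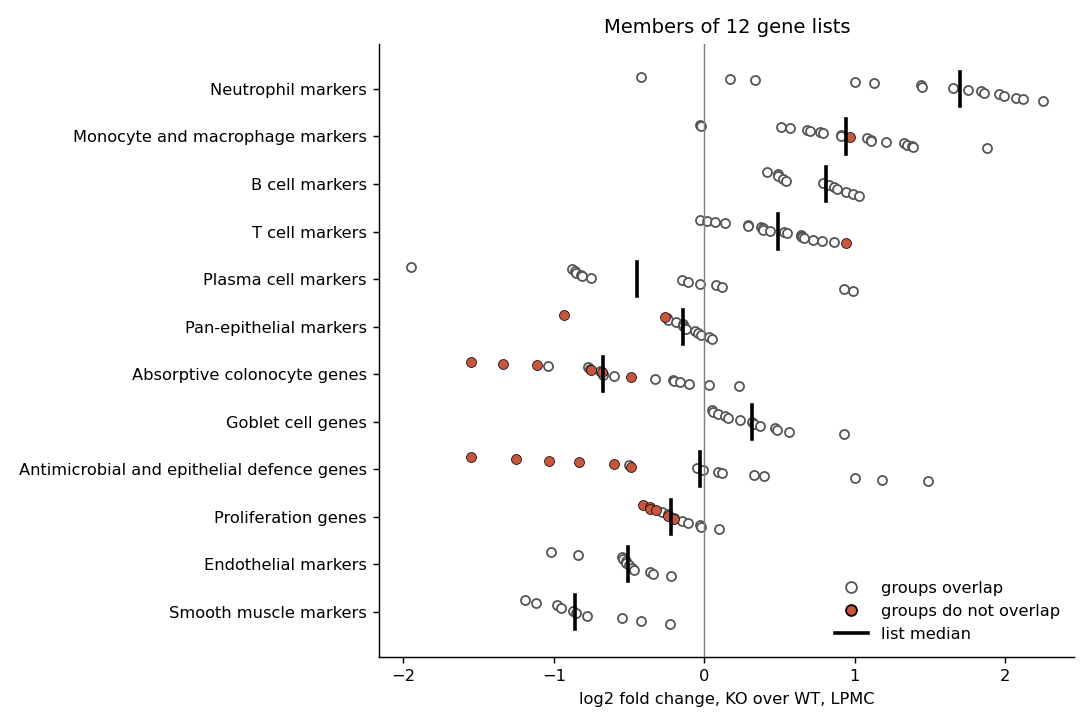
log2 differences, KO over WT, of the tested members of 12 gene lists (1 point a gene, black bar for the list median); filled points are genes whose WT and KO libraries do not overlap. Neutrophil markers sit highest with a median of 1.70 and no filled point, whereas absorptive colonocyte, antimicrobial and proliferation lists each hold 6 filled points below 0. Saa1 is a filled point in both the absorptive colonocyte and the antimicrobial list.

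Stromal lists were on the negative side or near 0, with wide spread. Endothelial markers were negative in 12 of 12, with a median of -0.51 that ran from -1.01 (without KO 3) to -0.21 (without WT 1). Pecam1 was at 142, 90.7 and 78.8 CPM in WT and 62.1, 53.8 and 130 CPM in KO (-0.34, SE 0.40), and Vwf, the clotting factor stored by endothelium, at 72.9, 46.8 and 28.3 CPM in WT and 17.7, 17.5 and 47.7 CPM in KO (-0.84, SE 0.52). KO 3 overlapped WT in both. Smooth muscle markers were negative in 10 of 10, with a median of -0.86 that ran from -1.29 (without WT 3) to -0.24 (without WT 1), and WT 3, the lowest of the 6 at 225 CPM in sum, lay below every KO library. Acta2 was at 313, 229 and 41.1 CPM in WT and 118, 58.7 and 164 CPM in KO (-0.78, SE 0.74). Fibroblast and matrix genes had a median of -0.06 (-0.52 to 0.49 with 1 library left out), with Col1a1 at 935, 605 and 144 CPM in WT and 801, 207 and 734 CPM in KO. Red cell markers had a median of -0.27, and 0.68 without WT 2, which held the most of them (1837 CPM in sum). Enteric neuron and glia markers had a median of -0.05 over 9 tested of 11 members, and S100b and Sox10 were not tested for lack of counts. Of 6 marker genes of other epithelial tissues 2 were tested, with a median of -0.85.

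Proliferation genes were negative in 13 of 14, with a median of -0.22 and 6 of 14 lower without overlap, against 4.26% of all tested genes. The differences were small: Cdk1, the kinase that drives mitosis, was at 59.4, 74.7 and 57.7 CPM in WT and 55.2, 48.0 and 49.97 CPM in KO (-0.32, SE 0.13), and Birc5, a mitotic survival factor, was at 49.5, 64.2 and 50.7 CPM in WT and 47.2, 34.2 and 42.5 CPM in KO (-0.41, SE 0.16). Mki67, the standard marker of dividing cells, overlapped, at 331, 339 and 344 CPM in WT and 359, 317 and 318 CPM in KO. Dissociation stress genes, immediate early and heat shock genes that enzymatic digestion is known to induce, were high and had a median of -0.07 (-0.32 without KO 2 and 0.02 without KO 3). They summed to 19137 to 20257 CPM in WT and 15552 to 23494 CPM in KO. Nfkbia, the inhibitor of NF-kB and itself a target of it, was the member without overlap, at 1191, 1388 and 1115 CPM in WT and 987, 1030 and 869 CPM in KO (-0.36, SE 0.12).

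Whether the difference between genotypes was another in LPMC than in full colon was tested with an interaction term over all 12 libraries. By edgeR 0 of 20989 genes passed (0%), with 985 at an unadjusted p under 0.05, and by DESeq2 3 of 34244 (0.00876%), namely Clca4b and the predicted genes Gm8540 and Gm45694. Clca4b had the lowest p. Its log2 difference was -1.59 (SE 0.20) in LPMC and 0.28 (SE 0.28) in colon, and the interaction was -1.89 (SE 0.35, edgeR adjusted p = 0.902, DESeq2 adjusted p = 0.0454). Its level was 17.7 to 67.9 CPM in LPMC on the joint scale against 1860 to 3587 CPM in colon. Rdh16 was likewise lower in LPMC (-0.91, SE 0.17) and near 0 in colon (0.10, SE 0.21), an interaction of -1.02 (SE 0.24). Plaur, the urokinase receptor, was on opposite sides, at 0.38 (SE 0.20) in LPMC and -1.29 (SE 0.32) in colon, with an interaction of 1.66 (SE 0.40). Elk4 (interaction 0.71, SE 0.16) and Igsf23 (1.11, SE 0.27) were also among the 6 genes of lowest p. Each of these had an edgeR adjusted p of 0.902. For the leading lower genes of LPMC, the difference in colon was -1.18 (SE 0.48) for Cxcl1, -1.02 (SE 0.26) for Sprr2a3 and -0.12 (SE 0.39) for Saa1.

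**Figure D5:**
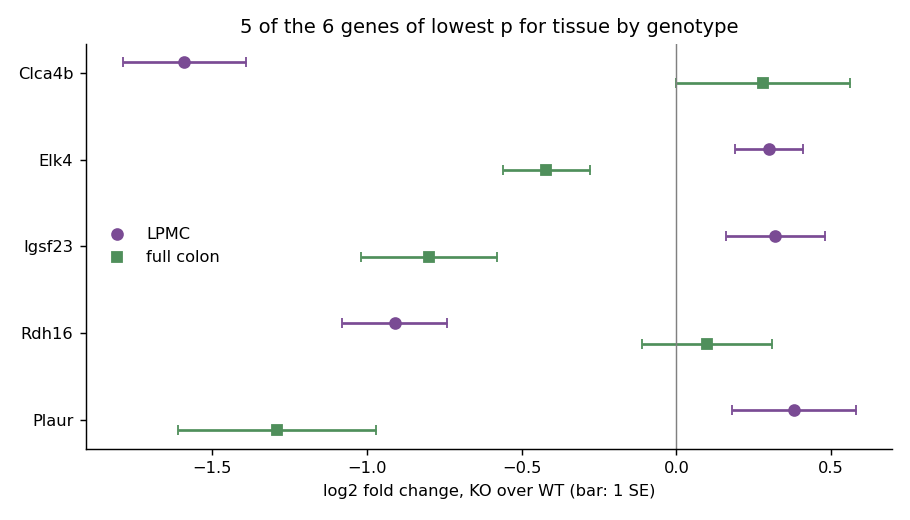
log2 differences, KO over WT, in LPMC (circles) and full colon (squares) for 5 of the 6 genes of lowest p for the interaction of tissue and genotype; bars are 1 SE. Clca4b and Rdh16 are below 0 in LPMC and near 0 in colon, and Plaur is above 0 in LPMC and below 0 in colon.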

How the data were processed

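The authors deposited raw counts for 12 libraries in 1 table, by Ensembl gene identifier and not normalized. Per the labels' protocols, the library kit was poly(A)-selecting and strand-preserving, and reads came from a HiSeq machine. Per the submitters' processing notes, STAR and the build GRCm38 (mm10) were used, while the counter and its strand setting are not given in those sources. Symbols came from GENCODE M21 (54042 of 54109 identifiers matched). Between 69.7 and 76.6% of counts from 1 to 20 were even in LPMC, as when mates of a pair are counted separately, so counting error exceeds what the counts imply.

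The 6 LPMC libraries were fitted with edgeR 4.0.16 in R 4.3.3 (TMM, filterByExpr with minimum count 10, robust quasi-likelihood F-test, Benjamini-Hochberg adjusted p under 0.05), and the interaction on all 12. The SE is the log2 difference over the square root of F. Ratios within a library used a pseudocount of 0.5 counts. DESeq2 1.42.0, limma 3.58.1, other normalization and filters, and leaving out libraries were alternatives. When tested on simulated data for the LPMC comparison (19426 genes), edgeR found 80 of the 100 genes set to a 4-fold change, 31 of the 100 set to 2-fold, and 11 wrongly. DESeq2 found 96 and 57, and 105 wrongly. The changed genes were drawn only from those with a mean above 1 CPM, so recovery of scarcer genes was not measured.

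Named were the deleted gene and Gpr15, called genes, 12 genes of lowest p in each direction with mean log2 CPM of at least 1 (no predicted genes or variable segments), up to the first 2 and the 4 of lowest p in each of 32 lists, neighbours within 1 Mb, and 6 genes for the interaction, of which 1 is not reported here. The gene lists and the comparison were chosen with earlier results of these data known.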

Additional observations from a re-analysis of the deposited data

How the results depend on the processing

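The number of called genes in LPMC, 2 by edgeR (1 higher, 1 lower), was 32 with DESeq2 (8 higher, 24 lower), 4 with no filter on low counts (3 lower, with Clca4b and Ighv1-49 added), and 5 without WT 3 and KO 2 (4 lower, with 3 antibody variable segments added). Leaving out 1 library gave 1 to 2 calls, 0 to 1 of them higher. With other size factors, limma voom, halved counts or a fit of all 12 libraries the count was 2. The interaction went from 0 calls to 3 with DESeq2. With the replicate number as a block 0 genes were called, and the adjusted p by edgeR was 0.145 for Gpr15l (log2 difference -12.17) and 0.616 for Cdhr1 (4.24). The labels give the groups the same numbers but nothing that they share, and same-numbered libraries correlated at 0.27, -0.07 and -0.28 in their deviations from the group means, so the numbers were not taken to pair them. Of the 32 list medians, 18 kept their sign under every alternative run and 14 did not, among them those of dendritic cell, fibroblast, interferon response and antimicrobial genes. The depth, at least 50.2 M counts a library, limits the genes under 1 CPM most, such as Ear2 and Ccl17.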
